A study of Homo sapiens with 3 samples.

Results

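Polycomb and trithorax genes encode chromatin proteins that hold *HOX* genes silent or active. Of 10 such regulators chosen by name (*EZH1*, *EZH2*, *EED*, *SUZ12*, *JARID2*, *RNF2*, *BMI1*, *KMT2A*, *WDR5* and *KDM6B*), 9 were matched to a probe through a transcript accession, and *EED* had no match in the transcript table used and was not analysed here. These 9 genes had 14 probes, of which 13 were well above background on all 3 arrays, and each of the 9 genes had at least 1 such probe, among 12031 genes of the whole array set that did. Expression was measured in HCT116, an established human colon cancer cell line, 48 h into treatment with control siRNA, with siRNA #7 or with siRNA #8, each at 10 nM. Both siRNA #7 and siRNA #8 were designed against the exon junction of *HOXA5* short RNA, a noncoding transcript of the *HOXA6*-*HOXA5* locus. From each condition, 400 ng of total RNA was labeled with Cy3 and hybridized to 1 SurePrint G3 array. Which siRNA an array received was taken from the sample titles, and the names of the array files number the siRNAs in another way. With 1 array per condition, the differences below carry no p-value, and both siRNAs were compared with the same control array.

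Polycomb repressive complex 2 (PRC2) methylates lysine 27 of histone H3. EZH2 or EZH1 is its enzyme, SUZ12 and EED are core subunits that the enzyme needs, and JARID2 is an accessory subunit that helps to recruit the complex. Polycomb repressive complex 1 (PRC1) ubiquitinates histone H2A through RNF2, with BMI1 as a partner subunit, while the trithorax protein KMT2A methylates lysine 4 of histone H3 with the help of WDR5, and KDM6B removes the methyl groups that PRC2 sets.

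The siRNAs are shown because they overlap. Each has 21 bases, and the 17 bases that they share, printed in capitals, are bases 5 to 21 of siRNA #7 and bases 1 to 17 of siRNA #8.
siRNA #7: gagaAACUGAAAGACAACAUA
siRNA #8: AACUGAAAGACAACAUAggcg
The 4 bases in lower case at the start of siRNA #7 and at the end of siRNA #8 are what separates them in the sequences as listed. The *HOXA5* spot had an intensity of 84.9 on the control siRNA array, against 52.6 for siRNA #7 and 58.5 for siRNA #8. Since both siRNAs target the same junction, this spot cannot tell which array received which of them. Once each array was scaled to its 75th percentile, siRNA #7 lay at a log2 ratio of -0.36 ± 0.25 (spot-to-spot SD) to control siRNA and siRNA #8 at -0.23 ± 0.26. Both were lower than control siRNA by less than 2 spot-to-spot SDs, and whether this probe tells the short RNA apart from the mRNA of the gene was not tested.

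The promoters of *EZH2*, *SUZ12* and *JARID2* are shown because these 3 genes differed from control siRNA with siRNA #8 by more than 2 spot-to-spot SDs. The windows run from 250 bases before the first listed transcription start through the first 30 bases from it, 5′ to 3′ on the strand of the gene, in RefSeq sequence of GRCh38.p14. They lie at chr7:148884262-148884541 (minus strand), chr17:31936757-31937036 (plus strand) and chr6:15245819-15246098 (plus strand), and capitals mark the letters of a CCAAT box (CCAAT, or ATTGG on the other strand) or of an E2F motif (TTTGGCGC, TTTGCCGC, TTTCGCGC or TTTCCCGC, either strand).
EZH2: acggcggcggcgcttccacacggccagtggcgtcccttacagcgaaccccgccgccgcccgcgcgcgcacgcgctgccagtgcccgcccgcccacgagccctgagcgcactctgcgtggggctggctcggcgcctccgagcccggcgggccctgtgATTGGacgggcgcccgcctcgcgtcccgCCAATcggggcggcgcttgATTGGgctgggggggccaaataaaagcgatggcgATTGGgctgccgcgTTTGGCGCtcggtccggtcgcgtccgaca
SUZ12: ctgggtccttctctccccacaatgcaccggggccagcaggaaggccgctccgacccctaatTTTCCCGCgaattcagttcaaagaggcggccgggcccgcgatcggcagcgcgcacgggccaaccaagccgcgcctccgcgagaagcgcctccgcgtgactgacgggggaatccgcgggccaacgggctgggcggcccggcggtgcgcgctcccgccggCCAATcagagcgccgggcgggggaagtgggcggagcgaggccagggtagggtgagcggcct
JARID2: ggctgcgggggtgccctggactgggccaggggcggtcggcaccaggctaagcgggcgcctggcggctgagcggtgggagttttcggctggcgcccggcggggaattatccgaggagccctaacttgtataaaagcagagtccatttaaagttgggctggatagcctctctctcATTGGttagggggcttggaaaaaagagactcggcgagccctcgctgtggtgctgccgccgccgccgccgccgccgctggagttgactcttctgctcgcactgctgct
The *EZH2* window held 4 CCAAT boxes and an E2F motif at bases 252 to 259, just past the start. The *SUZ12* window held 1 CCAAT box and 1 E2F motif, and the *JARID2* window held 1 CCAAT box and no E2F motif of these letters. It also held the letters of a TATA box (TATAAA), which began 124 bases before the start. In the full RefSeq windows of 300 bases, an E2F motif was found in 3 of 17 windows of the 10 regulators, those of *EZH1*, *EZH2* and *SUZ12*, and in 3.31% of 35116 windows of all genes. A CCAAT box was found in 5 of the 17 windows and in 34.6% of all windows, and a GC box (GGGCGG, either strand) in 14 of the 17 and in 45.0% of all. The 17 windows had a median GC content of 73.0% (range 51.3% to 91.0%), against 58.7% over all windows. These matches describe the letters of the windows and say nothing of which factor was bound in HCT116 cells.

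In what follows, a level is the log2 intensity of a probe less the 75th percentile of log2 intensity on its array, a log2 ratio is a difference of such levels, and its SD comes from probes printed 10 times on the array, at a similar signal. This error covers spotting and scanning on 1 array and leaves out the spread between cultures. Levels were compared between arrays for the same probe and never between genes. In RNA from a whole culture, less RNA per cell and fewer cells that carry the RNA cannot be told apart.

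*EZH2*, the main methyltransferase of PRC2 in dividing cells, had the widest difference between siRNA #7 and siRNA #8 among the 9 genes. Its level was 3.21 on the control siRNA array, 3.48 for siRNA #7 and 2.68 for siRNA #8. The array of siRNA #8 was the low one, and the other two lay closer together. Against control siRNA, the log2 ratio for siRNA #7 was 0.26 ± 0.15, within 2 SDs, and that for siRNA #8 was -0.54 ± 0.18, which is 1.45-fold lower. Directly between the siRNAs the log2 ratio of siRNA #8 to siRNA #7 was -0.80 ± 0.16, or 1.74-fold lower with siRNA #8. This last value stayed between -0.80 and -0.57 in 10 alternative ways of processing the arrays. Those that change only the choice of probe could not move it, since *EZH2* had 1 probe, and the same holds for *SUZ12* and *JARID2* below. The ratio of siRNA #7 to control siRNA was -0.064 when the arrays were scaled on spike-in probes.

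*EZH1*, the second PRC2 methyltransferase, which is known mostly from resting cells, had a level of 0.64 for control siRNA, 0.51 for siRNA #7 and 0.78 for siRNA #8. Its order of arrays was the reverse of that of *EZH2*, but no pair of neighbours in it differed beyond 2 spot-to-spot SDs. The log2 ratio was -0.13 ± 0.25 with siRNA #7 and 0.14 ± 0.26 with siRNA #8, and the second was -0.10 under spike-in scaling.

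*SUZ12* was the gene measured most often, since its probe was printed at 10 positions on each array. The spots had intensities from 750 to 931 (median 813) with control siRNA, where 1 spot was left out as an outlier, from 552 to 668 (median 598) with siRNA #7 and from 545 to 647 (median 593) with siRNA #8. The arrays had not yet been scaled in these intensities, and the control array was the brightest of the 3 overall. After scaling, the level was 3.97 ± 0.10 (SD, 9 spots) with control siRNA, 3.84 ± 0.10 (10 spots) with siRNA #7 and 3.77 ± 0.08 (10 spots) with siRNA #8. The spots of the 3 arrays overlapped, although at the 9 positions with a value on both arrays the level was lower than control siRNA at 9 with siRNA #7 and at 9 with siRNA #8. At the position left out, the outlier control spot was at 3.76, below siRNA #7 (3.90) and above siRNA #8 (3.67). The mean log2 ratio was -0.13 ± 0.050 with siRNA #7 and -0.20 ± 0.054 with siRNA #8, differences that correspond to 0.911 and 0.872 of the control level. Between the siRNAs it was -0.063 ± 0.048, within 2 SDs. The SD of *SUZ12* is smaller than that of genes with 1 spot because it averages over its spots, so that a small difference passes 2 SDs, and spots of 1 array are not replicates of a condition. The log2 ratios were below 0 in each of 10 alternatives with either siRNA, from -0.46 to -0.13 with siRNA #7 and from -0.44 to -0.15 with siRNA #8.

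**Figure D1:**
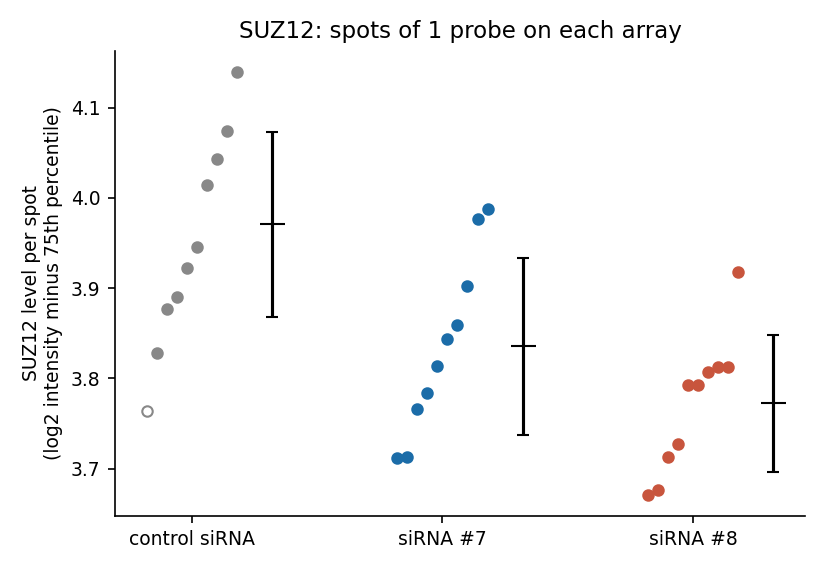
Level of *SUZ12* at each printed spot (vertical axis, log2 intensity minus the 75th percentile of the array) on the 3 arrays, with spots sorted by level within an array, an open circle for the outlier spot that was left out, and the mean and SD over spots beside them. The mean was 3.97 for control siRNA, 3.84 for siRNA #7 and 3.77 for siRNA #8, with overlapping ranges of spots.

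*JARID2*, the accessory PRC2 subunit, had a level of 1.87 on the control siRNA array, 1.83 for siRNA #7 and 2.34 for siRNA #8. Control siRNA and siRNA #7 were within their spot error, and the array of siRNA #8 was the high one. The log2 ratio was -0.039 ± 0.16 with siRNA #7 and 0.48 ± 0.18 with siRNA #8, which is 1.39-fold higher, and 0.51 ± 0.17 between siRNA #8 and siRNA #7. With siRNA #8 it thus lay on the other side of control siRNA from *EZH2*. In 10 alternatives that keep the siRNAs apart, the ratio for siRNA #8 ranged from 0.24, under spike-in scaling, to 0.58.

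*RNF2*, the E3 ubiquitin ligase of PRC1, had a level of 1.18 for control siRNA, 1.01 for siRNA #7 and 1.31 for siRNA #8 on its brighter probe, with log2 ratios of -0.17 ± 0.19 and 0.12 ± 0.18. A second probe gave -0.041 and -0.054, so that the direction with siRNA #8 rested on the choice of probe, and it was also below 0 (-0.12) under spike-in scaling. With siRNA #7, the median log2 ratio of the spots around the brighter *RNF2* probe was -0.20, close to that of the probe itself. *BMI1*, the partner of RNF2 in the canonical complex, had levels of 0.32, 0.25 and 0.067, and log2 ratios of -0.075 ± 0.25 and -0.26 ± 0.26. Its dimmer second probe gave 0.049 and 0.041. Neither gene differed between any 2 arrays by more than 2 spot-to-spot SDs.

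Of the trithorax genes, *KMT2A*, the H3K4 methyltransferase whose fusion proteins are known for activating *HOXA* genes in leukemia, was measured by 4 probes. Its brightest probe had a level of 3.85 for control siRNA, 3.75 for siRNA #7 and 3.89 for siRNA #8, and log2 ratios of -0.10 ± 0.15 and 0.036 ± 0.17. On 2 dimmer probes the ratios were 0.24 and 0.24 with siRNA #7 and 0.42 and -0.022 with siRNA #8, while the remaining probe was well above background on none of the 3 arrays. The mean of the 3 probes that passed was 0.13 with siRNA #7, so that the direction there also depended on the probe. *WDR5*, the scaffold subunit shared by the H3K4 methyltransferase complexes, differed least between arrays, with levels of 4.81, 4.83 and 4.87 and log2 ratios of 0.023 ± 0.14 and 0.057 ± 0.15. The span of 0.057 between its lowest and highest level was the smallest of the 9 genes.

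*KDM6B*, the H3K27 demethylase that opposes PRC2, gave a dim spot, with intensities of 12.8 for control siRNA, 13.6 for siRNA #7 and 17.2 for siRNA #8. Scaled to the arrays, the levels were -2.05, -1.63 and -1.32. The control array was the lowest, yet no pair of arrays differed beyond 2 SDs, since spots this dim had a wide spot error. The log2 ratio was 0.42 ± 0.40 with siRNA #7 and 0.73 ± 0.41 with siRNA #8, or 1.66-fold. With normexp background correction, which draws dim spots together, followed by quantile normalization, the values were 0.086 and 0.11. Quantile normalization alone gave 0.40 and 0.72.

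**Figure D2:**
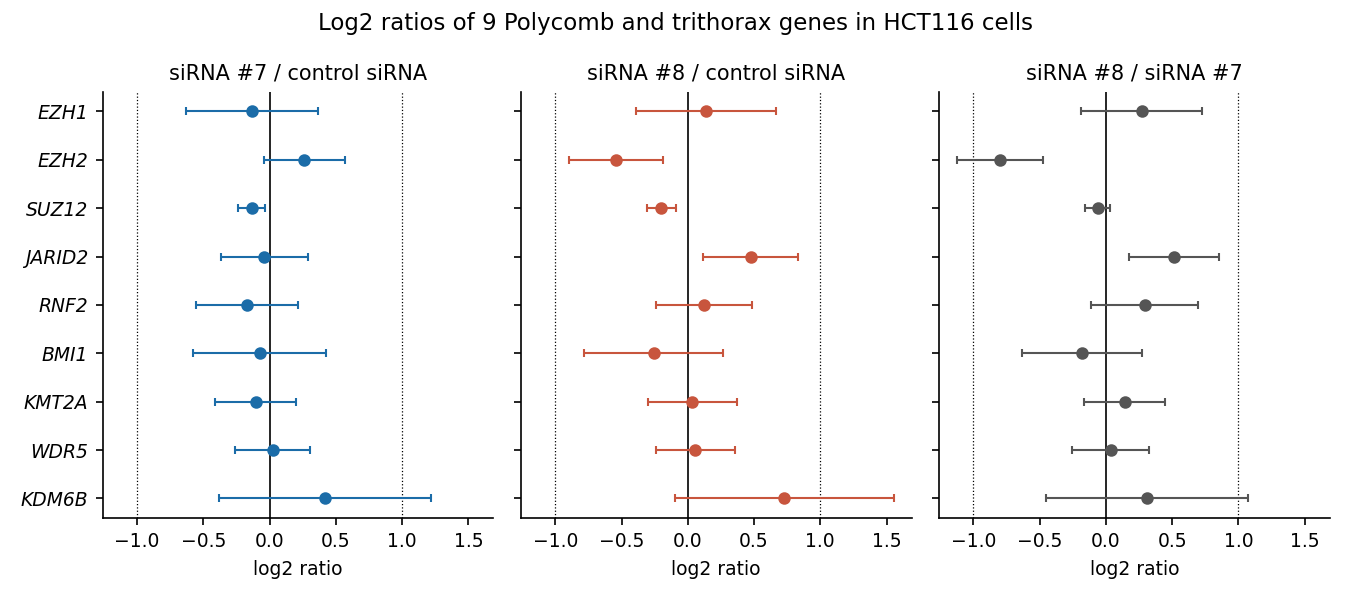
Log2 ratios (horizontal axes) of the 9 regulators for siRNA #7 to control siRNA, siRNA #8 to control siRNA and siRNA #8 to siRNA #7, with bars of 2 spot-to-spot SDs and dotted lines at 2-fold. With siRNA #8 the bars of *EZH2* (-0.54), *SUZ12* (-0.20) and *JARID2* (0.48) do not reach 0, and no point lies beyond 2-fold in any panel.

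Counted together, 0 of the 9 genes passed 2-fold in any direction. Over all 12031 genes, siRNA #7 had 2.04% higher and 1.72% lower past 2-fold, and siRNA #8 had 1.95% higher and 3.03% lower. Between the siRNAs, 2.29% were higher and 3.35% lower past 2-fold with siRNA #8. Past 1.5-fold, *KDM6B* alone was higher with siRNA #8 (1 of 9, against 7.79% of all genes), and none was lower (10.3% of all genes). With siRNA #7 none of the 9 passed 1.5-fold, against 7.56% of all genes higher and 6.93% lower. Between the siRNAs *EZH2* was lower with siRNA #8 past 1.5-fold (1 of 9, against 11.6%) and none was higher (8.89%).

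Past 2 spot-to-spot SDs, *SUZ12* was lower with siRNA #7 (1 of 9, against 14.7% of all genes) and none was higher (15.0%). With siRNA #8, *EZH2* and *SUZ12* were lower (2 of 9, against 16.8%) and *JARID2* was higher (1 of 9, against 14.5%). Between the siRNAs *EZH2* was lower (1 of 9, against 20.1%) and *JARID2* higher (1 of 9, against 17.0%) with siRNA #8. With 9 genes, 1 or 2 past a limit is near what these shares would put there, and nothing is read from the counts about the set. The median log2 ratio was -0.075 with siRNA #7 (3 genes higher, 6 lower) and 0.057 with siRNA #8 (6 higher, 3 lower), beside 0.014 and 0.0072 over all genes.

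**Figure D3:**
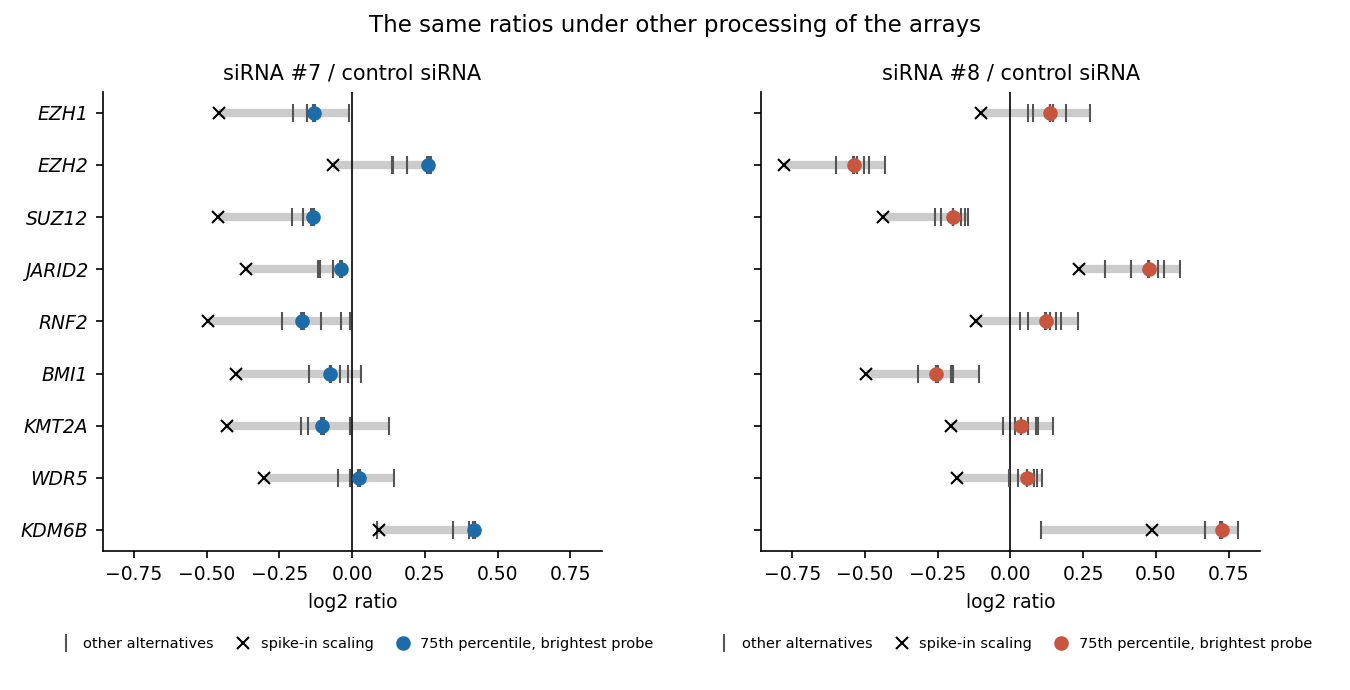
Log2 ratios (horizontal axes) of the 9 regulators with siRNA #7 and siRNA #8 against control siRNA, as given in the text (filled circles), with spike-in scaling (crosses) and under the other alternatives (ticks), with a gray bar over their range. *SUZ12* stayed below 0 and *KDM6B* above 0 in both panels, and *EZH2* lay at or below -0.43 with siRNA #8 in all plotted settings, while *WDR5* and *KMT2A* had values on both sides of 0.

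Further Polycomb and trithorax genes, with H3K4 demethylase genes, were read from lists of 69 genes, of which 62 had a passing probe. Some of these lists are of other complexes than those of the regulators above. Their median log2 ratio was -0.058 with siRNA #7 and -0.0060 with siRNA #8. Past 2-fold, siRNA #7 had 2 higher and 1 lower (2.04% and 1.72% of all genes), and siRNA #8 had 1 higher and 0 lower (1.95% and 3.03%). Past 2 spot-to-spot SDs, siRNA #7 had 11 higher and 9 lower (15.0% and 14.7% of all genes), and siRNA #8 had 7 higher and 9 lower (14.5% and 16.8%).

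Accessory PRC2 genes were below control siRNA in 8 of 8 cases with siRNA #7 and in 7 of 8 with siRNA #8, where 48.5% and 49.2% of all genes were. Past 2 spot-to-spot SDs, 2 of 8 were lower with siRNA #7 (against 14.7% of all genes) and none was higher (15.0%). With siRNA #8, 2 of 8 were lower (16.8%) and 1 was higher (14.5%). The medians of the list were -0.26 and -0.20, and over the settings tried these medians remained below 0, from -0.58 to -0.15 and from -0.44 to -0.12. Single genes did not: with siRNA #8 they ranged from -0.49 to 0.31 after the median of the surrounding spots was removed. *LCOR*, whose locus encodes a PRC2-associated protein, was at -1.33 ± 0.16 for siRNA #7 and at -0.25 ± 0.18 for siRNA #8 on the log2 scale, and a second probe gave -0.83 and -0.37. After the median of the surrounding spots was removed, the first value was -0.44. *PHF19*, named after its values were seen, was at -0.28 ± 0.14 with siRNA #7 and -0.094 ± 0.15 with siRNA #8 on its brightest probe. A second, dimmer probe gave 0.12 ± 0.16 and -1.47 ± 0.21, so that the probes of this gene disagreed. *RBBP4*, a histone chaperone, was at 0.52 ± 0.15 with siRNA #8 on its brightest probe and was named after its values were seen. Without removal of the surrounding spots, it was the 1 gene of the list above control siRNA there. Its 3 other probes gave 0.28, 0.17 and -0.20, and the mean of the 4 was 0.19. *RBBP7*, its close relative, whose probe was printed at 10 positions, had log2 ratios of -0.37 ± 0.046 and -0.36 ± 0.048 and was likewise named after its values were seen. Over all genes, 634 of 12031 were lower past 2 spot-to-spot SDs with both siRNAs, which share the control array.

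The 21 PRC1 genes had medians of -0.10 and 0.063. *L3MBTL2*, a subunit of a variant PRC1 complex, was at a log2 ratio of 1.24 ± 0.34 for siRNA #7 and of 0.18 ± 0.41 for siRNA #8, but the first value was -0.0095 after the median of the surrounding spots was removed. The chromobox genes *CBX2*, *CBX6* and *CBX7*, whose products read the H3K27 methyl mark, were named after their values were seen. Their log2 ratios were 0.57 ± 0.15, 0.75 ± 0.14 and 0.58 ± 0.16 with siRNA #7 and 0.047 ± 0.17, 0.24 ± 0.15 and 0.14 ± 0.18 with siRNA #8. A second, dimmer probe of *CBX7* gave -0.018 ± 0.33 and 0.28 ± 0.26, and the mean of its probes was 0.28 and 0.21. Genes of the PR-DUB complex, which removes the ubiquitin that PRC1 sets, had medians of 0.70 and 0.067 over 3 genes. Its *ASXL1* had 0.82 ± 0.16 with siRNA #7 and 0.067 ± 0.18 with siRNA #8.

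The 14 genes of the COMPASS-like H3K4 methyltransferase complexes, to which KMT2A and WDR5 belong, had medians of -0.076 and -0.029, and none passed 2-fold. *PAGR1*, a subunit of the KMT2C and KMT2D complexes, was lower with log2 ratios of -0.65 ± 0.25 and -0.95 ± 0.26. The 2 other trithorax genes had medians of 0.076 and -0.24, with *ASH1L* at -0.53 ± 0.40 and -0.17 ± 0.41. The other, *KMT2E*, named after its values were seen, was at 0.68 ± 0.16 and -0.32 ± 0.18 on its brightest probe. The mean of its 3 passing probes was 0.28 and -0.029. After the median of the surrounding spots was removed, its brightest probe gave 0.20 and 0.41, so that the direction with siRNA #8 depended on the processing. Medians of the 11 SWI/SNF genes, which encode a nucleosome remodeler of the trithorax group, were 0.083 and 0.041. *SMARCB1*, its core subunit, was higher for siRNA #7 by a log2 ratio of 1.20 ± 0.15 and for siRNA #8 by 0.81 ± 0.16, whereas a second probe gave 0.21 ± 0.16 and 0.053 ± 0.18. The probes of this gene thus disagreed about the size of the difference.

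The 3 H3K4 demethylase genes had medians of -0.088 and 0.16. *KDM5B*, which removes the mark that KMT2A sets, had a level of 1.79 on the control siRNA array, 2.03 for siRNA #7 and 3.28 for siRNA #8. The log2 ratio with siRNA #8 was 1.49 ± 0.17, and a second probe gave 1.49 ± 0.24, while with siRNA #7 the probes gave 0.24 ± 0.16 and 0.27 ± 0.25. It was the gene of these lists farthest above control siRNA with siRNA #8, and its value there stayed between 1.25 and 1.54 over the settings tried.

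**Figure D4:**
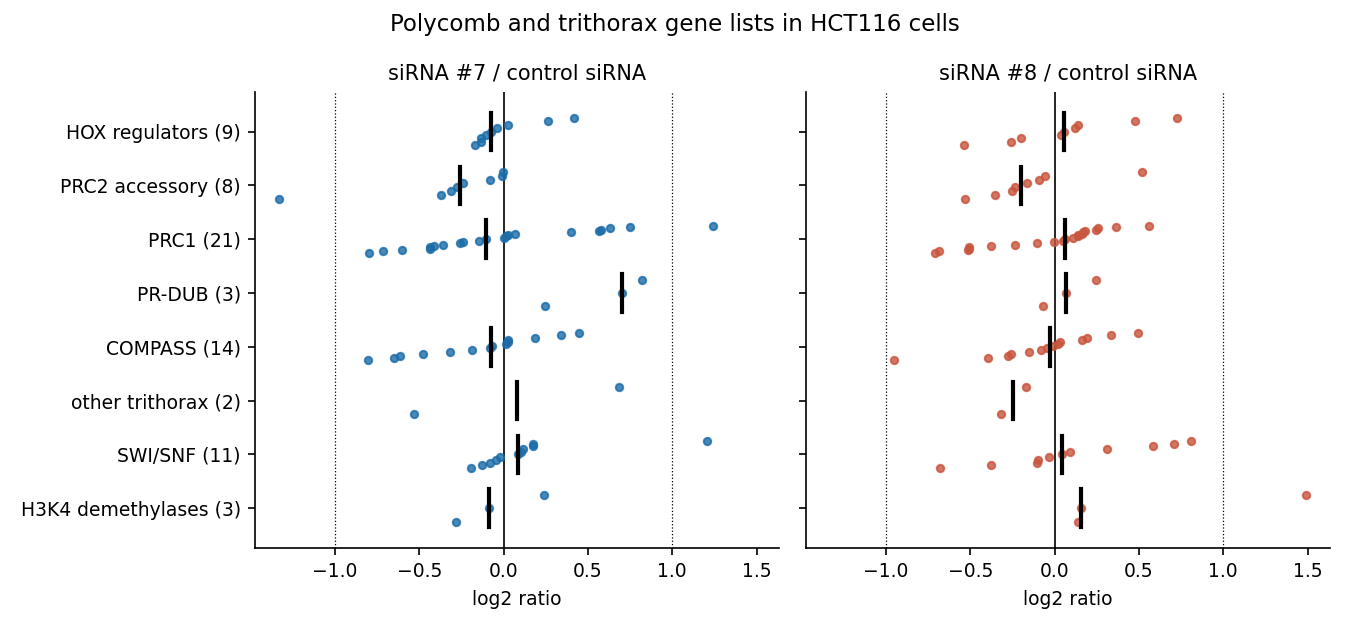
Log2 ratios (horizontal axes) with siRNA #7 and siRNA #8 against control siRNA for the 9 *HOX* regulators and for the lists of further Polycomb, trithorax and H3K4 demethylase genes. There is 1 point per gene, with a black bar at the median of each list, dotted lines at 2-fold and the number of genes in brackets. The list labeled PRC2 accessory, which also holds *RBBP4* and *RBBP7*, had medians of -0.26 and -0.20. *KDM5B*, at 1.49 with siRNA #8, is the point farthest to the right among the H3K4 demethylases.

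*KDM6B* had the largest mean log2 ratio over both siRNAs among the 9 regulators. Of the 62 genes of the lists, the nearest to it by Euclidean distance over both log2 ratios were *SMARCD1* (distance 0.25, ratios 0.17 and 0.71), *KMT2C* (0.33, ratios 0.18 and 0.49) and *ARID2* (0.37, ratios 0.083 and 0.58), a likeness over 2 ratios that share a control array. A second probe of *KMT2C* gave -0.070 and -0.13. After the median of the surrounding spots was removed, *ARID2* was at -0.57 and 0.024, no longer close to *KDM6B* (0.42 and 0.67).

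Of the 50599 gene probes, 19073 to 20475 were well above background on the 3 arrays, and no spot was saturated. Among markers of colon epithelium, 6 of 8 were well above background on all arrays (*EPCAM*, *KRT8*, *KRT18*, *KRT19*, *CDH1* and *CDX2*), while *VIL1* and *LGALS4* were so on none. Intensities of the 8 summed to 56426 for control siRNA, 51242 for siRNA #7 and 47997 for siRNA #8 before scaling, and to 1069, 1217 and 1122 times the 75th percentile of the array after it. Of leukocyte markers, *CD68* was dim and well above background on all arrays, and *PTPRC* and *CD3E* were so on none. Markers of fibroblasts (1 of 3 above background on all arrays, *COL1A1*) and endothelium (0 of 2) had summed intensities of 31.7 to 51.1 and 7.19 to 12.1 before scaling. *VWF* was well above background on both siRNA arrays and not on the control array (intensities 5.51, 10.3 and 9.62), and *COL1A2*, *DCN* and *PECAM1* were well above background on no array.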

How the data were processed

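The authors extracted the data with Agilent Feature Extraction 11.5.1.1, per the file headers, and deposited the intensity of each spot, background-subtracted and not scaled between arrays. They also deposited a table of log2 values, centred on the median of each probe, which was used as an alternative. The methods name GeneSpring, with no normalization stated.

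Outlier spots (313 to 413 per array) were dropped, a probe was taken as the mean of its remaining spots, and each array was scaled to the 75th percentile of its gene probes in Python 3.11.15 (numpy 2.4.6, pandas 2.3.3). A probe passed if it was well above background on all 3 arrays and at or above the 20th percentile on at least 2, which left 18121 probes. Accessions were matched to RefSeq transcripts of GRCh38.p14, which named 30000 of 50593 probes, and the brightest passing probe stood for a gene. Probe positions are not given (the array design used an older build). The SD of a ratio came from probes printed 10 times (604 to 620 per array), pooled within 6 ranges of signal, and was divided by the square root of the number of spots of the probe. All 3 arrays lay on 1 slide.

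The regulators and gene lists were chosen with earlier results of these data known, and so was the comparison between siRNAs. Named from each list were genes past 2-fold with either siRNA or, failing that, the gene with the largest mean ratio, and the report marks any gene outside this rule. Alternatives covered scaling (median, quantile, percentile over bright probes, spike-in probes), normexp background correction on median signals (offset 50), the deposited log2 values, the mean of probes, other filters, a threshold of 1.5-fold, removal of the median of neighboring spots within 3 rows and columns, and limma 3.58.1 (R 4.3.3) on a single group made of both siRNA arrays. The steps were tested on simulated data. The number of arrays limits the precision.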

Additional observations from a re-analysis of the deposited data

How the results depend on the processing

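Scaling on 10 spike-in probes moved the median log2 ratio of the 9 regulators to -0.40 with siRNA #7 and -0.18 with siRNA #8, and that of all genes by -0.32 and -0.24. A threshold of 1.5-fold gave 1 regulator (*KDM6B*) with siRNA #8 in place of 0. The medians and counts kept their values within the spread under the other alternatives, 41 of 44 comparisons. For limma, the comparison set its calls against the count past 2-fold, which is an unlike measure, so its agreement at 0 carries no weight. Some alternatives could not move a value. The other filters kept the same brightest probe for each of the 9 regulators, and the mean of probes changes nothing for a gene with 1 probe. The deposited log2 values gave nearly the same ratios as scaling to the 75th percentile. Of 198 values of single regulators, 22 moved by more than their spot-to-spot SD. These include *EZH2* (-0.14) and *JARID2* (0.22) under limma, which averages both siRNAs against 1 control array, so that its lack of calls among the 9 (unadjusted p under 0.05 for 0) says nothing of them, and *KDM6B* with siRNA #8 under normexp (0.11). Without a filter on dim probes, the median of all genes moved by 0.13 and 0.14. No paired analysis was possible because there is a single array per condition. Without replicates, none of these differences can be told from differences between cultures, and *KDM6B* rests on a dim spot.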
